A study of Mus musculus with 23 samples.

Results

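The small leucine-rich proteoglycans (SLRPs) are secreted matrix proteins with a core of leucine-rich repeats. They were taken here as 8 genes, *Lum*, *Dcn*, *Bgn*, *Fmod*, *Ogn*, *Prelp*, *Aspn* and *Podn*, chosen by symbol, and all 8 were among the 18512 gene symbols counted in each mouse. Acute pancreatitis had been induced in male and female C57BL/6 mice, 6 to 8 weeks old, with caerulein, an analogue of the hormone cholecystokinin that overstimulates the acinar cells. The injections were 8 a day at hourly intervals for 2 days at 50 µg/kg. RNA from the head of the pancreas was sequenced from 8 non-injured mice (baseline; 4 female, 4 male), 8 mice at day 7 after injury (4 female, 4 male) and 7 mice at day 14 (3 female, 4 male). All groups were of this strain, each library came from 1 mouse, and the authors had left a further female of the day 14 group out.

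SLRPs bind collagen fibrils through the concave face of their repeats and help to set fibril diameter and spacing. Several also hold TGF-β or bind innate immune receptors once they are released from the matrix. Fibroblasts and, in the pancreas, stellate cells are the main producers. Decorin (*Dcn*), biglycan (*Bgn*) and asporin (*Aspn*) form one structural class, of which decorin and biglycan carry chondroitin or dermatan sulfate chains while asporin has a run of aspartates in place of a chain. Lumican (*Lum*), fibromodulin (*Fmod*) and PRELP (*Prelp*) form another, of which lumican and fibromodulin can carry keratan sulfate and PRELP has a basic amino terminus that binds heparin. Osteoglycin (*Ogn*, also called mimecan) and podocan (*Podn*) belong to further classes.

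The classes can be read in the coding sequence. Each member has a cluster of 4 cysteines ahead of its leucine-rich repeats, and the codons between them differ in number between the classes. The stretches below run from the first to the last cysteine codon of the cluster in the GENCODE M21 transcript of each gene, 5′ to 3′, with the cysteine codons in capitals.
Dcn: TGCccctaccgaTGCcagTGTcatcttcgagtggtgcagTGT
Bgn: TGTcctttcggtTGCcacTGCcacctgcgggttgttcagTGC
Aspn: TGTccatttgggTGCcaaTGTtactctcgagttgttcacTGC
Lum: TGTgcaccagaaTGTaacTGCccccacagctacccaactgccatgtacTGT
Fmod: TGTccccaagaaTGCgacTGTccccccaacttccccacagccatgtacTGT
Prelp: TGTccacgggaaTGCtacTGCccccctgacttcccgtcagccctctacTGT
Ogn: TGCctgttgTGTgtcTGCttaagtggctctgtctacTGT
Podn: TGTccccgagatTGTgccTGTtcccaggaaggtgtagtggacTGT
*Dcn*, *Bgn* and *Aspn* had 3, 1 and 6 codons between successive cysteines. *Lum*, *Fmod* and *Prelp* had 3, 1 and 9, *Ogn* had 2, 1 and 6, and *Podn* had 3, 1 and 7. A chondroitin or dermatan sulfate chain can start at a serine followed by a glycine. Between the start codon and the cluster, this pair of codons occurred 1 time in *Dcn*, 2 times in *Bgn* and 1 time in *Lum*. It occurred 0 times in *Aspn*, *Fmod*, *Prelp*, *Ogn* and *Podn*. The stretch counted includes the signal peptide, which is cut off. Whether a pair remains in the secreted protein, or carries a chain, was not tested.

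On GRCm38 the members lie in a few neighbourhoods. *Dcn* (chr10:97479609-97518143) and *Lum* (chr10:97565128-97572703) are adjacent on the plus strand of chromosome 10, 47.0 kb apart. *Aspn* (chr13:49544443-49567565) and *Ogn* (chr13:49608046-49624501) lie on the plus strand of chromosome 13 in a row with *Ecm2* and *Omd*, other genes of the family, with no other protein-coding gene between them on that strand. This row overlaps *Cenpp* on the minus strand. *Prelp* (chr1:133910304-133921414, minus strand) and *Fmod* (chr1:134037254-134048277, plus strand) are neighbours on chromosome 1, while *Bgn* (chrX:73483602-73495933) and *Podn* (chr4:108014791-108096445) stand alone. RefSeq promoter windows around the annotated start on GRCm38.p6 were matched for 6 members (7 windows, 2 of them for *Podn*), and *Lum* and *Dcn* had no entry. The windows of *Ogn* and *Aspn*, both higher at day 7, and that of *Bgn*, which did not pass the test, are printed 5′ to 3′ with motif matches on either strand in capitals. The motifs searched were the box of basal promoters spelled TATAAA, the NF-Y-type element spelled CCAAT, and the Sp1-type element spelled GGGCGG.
Ogn promoter, chr13:49607765-49608064 (+ strand): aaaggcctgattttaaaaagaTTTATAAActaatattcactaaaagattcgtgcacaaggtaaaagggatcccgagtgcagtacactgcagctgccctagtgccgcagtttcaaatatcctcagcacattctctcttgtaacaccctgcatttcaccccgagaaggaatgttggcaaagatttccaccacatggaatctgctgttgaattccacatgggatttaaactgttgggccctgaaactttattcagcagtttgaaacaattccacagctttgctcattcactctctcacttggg
Aspn promoter, chr13:49544193-49544492 (+ strand): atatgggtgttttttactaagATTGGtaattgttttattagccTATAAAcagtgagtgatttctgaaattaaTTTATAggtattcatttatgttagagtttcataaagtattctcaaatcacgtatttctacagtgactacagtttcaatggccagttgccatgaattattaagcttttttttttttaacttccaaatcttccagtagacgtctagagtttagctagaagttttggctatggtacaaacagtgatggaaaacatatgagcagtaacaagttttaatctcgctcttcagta
Bgn promoter, chrX:73483351-73483650 (+ strand): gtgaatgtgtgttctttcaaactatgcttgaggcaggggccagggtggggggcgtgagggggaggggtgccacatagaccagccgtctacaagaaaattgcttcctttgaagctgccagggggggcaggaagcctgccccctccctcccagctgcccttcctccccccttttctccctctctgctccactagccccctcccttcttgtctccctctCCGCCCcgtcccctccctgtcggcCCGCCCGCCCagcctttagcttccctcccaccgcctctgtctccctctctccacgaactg
The GC content was 42.3% for *Ogn*, 31.0% for *Aspn* and 63.7% for *Bgn*, against a median of 52.7% over all 32851 windows. For the others it was 51.0% (*Fmod*), 55.3% (*Prelp*) and 77.0% and 63.0% (*Podn*). TATAAA occurred in the windows of *Ogn* and *Aspn*, and in 13.6% of all windows. In *Ogn* its 2 matches overlapped on opposite strands (from −229 and −227 relative to the start), and in *Aspn* they began at −207 and −178. All of these matches lay well upstream of the start, and whether any motif match works as a promoter element was not tested. CCAAT occurred in *Fmod*, *Prelp* and *Aspn* (37.4% of all windows), and GGGCGG in *Bgn* and *Podn* (35.7% of all windows), with 2 of the 3 matches in *Bgn* overlapping.

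The files held between 7059890 and 9567446 counts per mouse. Counts were scaled with TMM factors, which lay between 0.769 and 1 (baseline), 1.05 and 1.40 (day 7) and 0.934 and 1.03 (day 14). Levels are given as CPM, the counts scaled to a common library size, and are compared between genes only as CPM per kb of merged exons. In edgeR's quasi-likelihood F test a gene was called when its adjusted p did not exceed 0.05 and its groups differed at least 1.5-fold (0.585 on the log2 scale). All 8 members passed the filter on low counts and were among the 12195 genes tested. Acinar markers made up 281010 to 406940 CPM at baseline, and all 17 fibroblast and stellate cell markers had counts, with *Lrat*, a stellate cell gene, at 0 counts in 15 of the 23 mice. Lymphocyte marker genes summed to over 50 CPM in mouse 5 (baseline), mice 10 and 15 (day 7) and mouse 21 (day 14), and to a median of 2.98 to 5.55 CPM in the 3 groups. Members called are therefore also given without these 4 mice. In whole tissue, fewer cells of a type and less RNA per cell cannot be told apart.

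The family as a whole was a small part of the transcriptome. Its 8 members took 0.0128% ± 0.00369 (SD, n = 8) of all counts at baseline, 0.0294% ± 0.00620 (n = 8) at day 7 and 0.0200% ± 0.00303 (n = 7) at day 14. Per length, *Dcn* was the most abundant member in every mouse, with 17.1 ± 4.29 CPM per kb at baseline, above 93.2% of the genes tested. *Ogn* followed at 5.55 ± 0.845 and *Lum* at 4.04 ± 1.31, and their order did not hold in 2 of the 8 baseline mice. *Bgn* had 1.92 ± 0.663, *Prelp* 1.36 ± 0.406 and *Aspn* 1.27 ± 0.388 CPM per kb, and the ranges of neighbours in this order overlapped. *Podn* (0.577 ± 0.245) and *Fmod* (0.431 ± 0.251) were lowest, and their ranges overlapped too. With the longest transcript in place of the merged exons, *Bgn* stood at 4.39 CPM per kb and changed places with *Lum*.

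At day 7 after injury, 4 of the 8 members were called and all 4 were higher than at baseline: *Lum*, *Aspn*, *Ogn* and *Dcn*. Among all genes tested, 5.13% were called at day 7 and 3.82% were called and higher. The members had been chosen with earlier results of these data known, so these shares are given as a description. Every day 7 mouse lay above every baseline mouse for *Lum* and *Ogn*, which was so for 1.16% of the genes tested. The other 4 members, *Bgn*, *Fmod*, *Prelp* and *Podn*, had fold changes between 0.809 and 1.07 and were not called. With the 4 mice of high lymphocyte marker level left out, the same 4 members were called.

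*Lum* encodes lumican, a keratan sulfate proteoglycan that spaces collagen fibrils and is best known from the cornea. Its level was 5.38 CPM in the lowest, 11.4 in the median and 13.3 in the highest baseline mouse. At day 7 these values were 16.7, 27.7 and 33.9 CPM, and at day 14 they were 11.6, 14.3 and 27.6 CPM. All 8 day 7 mice and 5 of 7 day 14 mice stood above the highest baseline mouse. The log2 fold change was 1.41 (standard error 0.156, adjusted p = 1.57e-06) at day 7, the largest of the 8 members, and 0.90 (standard error 0.164, adjusted p = 0.00364) at day 14. The day 14 call was lost in a fit without sex as a covariate (log2 fold change 0.88, adjusted p = 0.0625).

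*Dcn* encodes decorin, which binds type I collagen and sequesters TGF-β. It ranged from 68.1 CPM over a median of 97.8 to 152 at baseline. At day 7 it ranged from 133 over 166 to 224 CPM, and at day 14 from 105 over 137 to 168 CPM. The groups overlapped: 6 of 8 day 7 mice, and 1 of 7 day 14 mice, were above the highest baseline mouse. The log2 fold change was 0.78 (standard error 0.138, adjusted p = 0.000481) at day 7 and 0.44 (standard error 0.142, adjusted p = 0.140) at day 14.

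*Ogn* encodes osteoglycin, whose core protein also takes part in collagen fibril assembly and whose promoter is printed above. Its levels were the tightest of the family at day 7. The lowest, median and highest mouse had 10.7, 14.2 and 18 CPM at baseline, 22.8, 25.5 and 28.1 at day 7 and 13.8, 21.6 and 26.5 at day 14. The coefficient of variation was 7.23% at day 7, against 15.2% at baseline and 20.2% at day 14. No day 7 mouse overlapped baseline, and 6 of 7 day 14 mice were above it. The log2 fold change was 0.82 (standard error 0.102, adjusted p = 2.67e-06) at day 7. At day 14 it was 0.55 (standard error 0.107, adjusted p = 0.00402), a 1.47-fold difference that passed the adjusted p but not the fold threshold.

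*Aspn* encodes asporin, which binds TGF-β and competes with decorin for collagen. The lowest, median and highest levels were 2.00, 2.77 and 4.17 CPM at baseline, 2.23, 6.84 and 8.42 at day 7 and 2.87, 4.57 and 8.54 at day 14. A total of 7 day 7 mice were above every baseline mouse, and mouse 11, at 2.23 CPM (20 counts), lay within the baseline range. At day 14, 5 of 7 mice were above it. The log2 fold change was 1.09 (standard error 0.230, adjusted p = 0.00174) at day 7 and 0.70 (standard error 0.242, adjusted p = 0.162) at day 14.

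**Figure D1:**
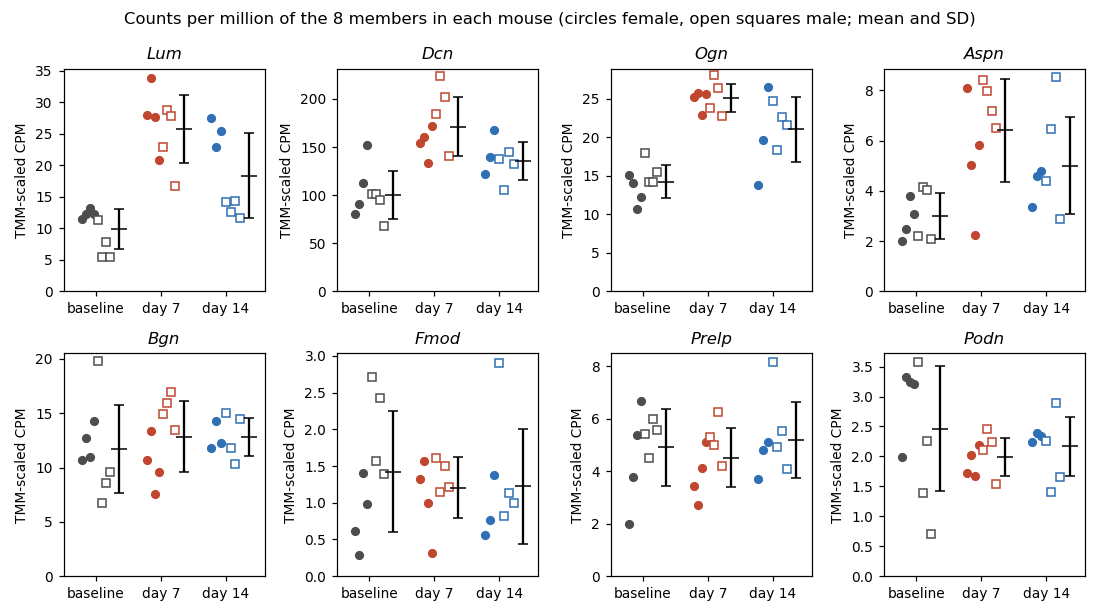
TMM-scaled CPM of each member in each of the 23 mice by time point, with circles for females, open squares for males, and the mean and SD at the right of each group; each panel has its own axis from 0. In the upper row (*Lum*, *Dcn*, *Ogn*, *Aspn*) day 7 lies above baseline, without overlap for *Lum* and *Ogn*; in the lower row (*Bgn*, *Fmod*, *Prelp*, *Podn*) the groups overlap.

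The remaining members stayed within overlapping ranges. *Bgn* encodes biglycan, the closest relative of decorin and a ligand of toll-like receptors when released. It had 6.77 to 19.8 CPM at baseline (median 10.9), 7.58 to 17 at day 7 (median 13.4) and 10.3 to 15 at day 14 (median 12.2). Its log2 fold change was 0.10 at day 7 (adjusted p = 0.723), with a 95% interval of −0.26 to 0.47. With TMM, that interval lies below the threshold of 0.585, and below the lower bounds for *Dcn* (0.49), *Lum* (1.08), *Ogn* (0.61) and *Aspn* (0.60). The difference between genes was not tested. With total counts in place of TMM, *Bgn* was at 0.55 at day 7 (adjusted p = 0.026 in edgeR), under the fold threshold, while the median of all genes moved up by 0.45.

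*Prelp* ranged over 2.00 to 6.67 CPM (baseline), 2.70 to 6.25 CPM (day 7) and 3.70 to 8.17 CPM (day 14), with a log2 fold change of −0.14 at day 7 (95% interval −0.52 to 0.24, adjusted p = 0.629). *Podn*, which encodes a repressor of smooth muscle cell growth, had 0.696 to 3.58 CPM at baseline and a narrower 1.54 to 2.45 CPM at day 7. Its log2 fold change was −0.31 at day 7 (95% interval −0.78 to 0.17, adjusted p = 0.364). *Fmod*, which encodes fibromodulin, an organiser of tendon collagen, was counted 2 to 27 times per mouse. A level of 3 counts, taken as the smallest detectable, corresponds to 0.225 to 0.522 CPM here. The log2 fold change of *Fmod* was −0.17 at day 7 with a wide 95% interval of −0.85 to 0.51 (adjusted p = 0.757), so that a 1.5-fold decrease could not have been told from no change at this depth. With total counts in place of TMM the signs of *Fmod* (0.29), *Prelp* (0.30) and *Podn* (0.14) turned positive, while the median of all genes moved up by 0.45; relative to that median all 3 remained lower.

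The 4 members that rose are the 4 on chromosomes 10 and 13, a grouping noticed after the values were seen. *Ecm2*, the first gene of the row on chromosome 13 and no member of the set above, had 1.01 to 3.70 CPM in baseline mice, 3.22 to 7.87 CPM on day 7 and 2.94 to 5.74 CPM on day 14. It encodes a matrix protein with leucine-rich repeats related to decorin. It changed by 1.18 on the log2 scale (standard error 0.181, adjusted p = 5.15e-05) at day 7 and 0.84 (adjusted p = 0.0171) at day 14, both called. *Omd*, which encodes osteomodulin and lies between *Aspn* and *Ogn*, had 0 to 8 counts per mouse and was not tested. *Cenpp*, the gene on the opposite strand of the whole row, had 0 to 5 counts in baseline mice, 1 to 11 in day 7 mice and 1 to 6 in day 14 mice. At baseline *Aspn* had 12 to 27 counts, *Ecm2* 7 to 30 and *Ogn* 76 to 146, and at day 7 they had 20 to 91, 31 to 105 and 205 to 344. With the strand setting of the counting not known, how many of these reads belong to either strand was not tested. The structural classes did not divide the same way: each of the classes of *Dcn*, *Bgn* and *Aspn* and of *Lum*, *Fmod* and *Prelp* held members that were called and members that were not.

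**Figure D2:**
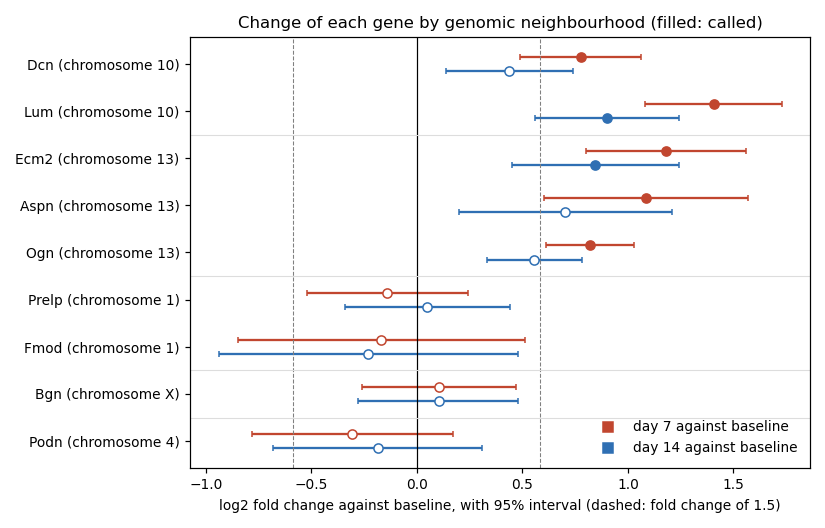
Log2 fold change against baseline at day 7 and at day 14 with 95% intervals for the 8 members and *Ecm2*, ordered by chromosomal neighbourhood; filled points were called and the dashed lines mark a fold change of 1.5. The genes of chromosomes 10 and 13 lie between 0.78 and 1.41 at day 7, and the other members between −0.31 and 0.10. *Tsku* of chromosome 7, also a tested gene of the family outside the members, is not plotted (0.30 at day 7).

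Other genes of the family were scarce. *Tsku*, which encodes tsukushi, was tested and had a log2 fold change of 0.30 at day 7 (adjusted p = 0.387) and −0.11 at day 14 (adjusted p = 0.921). *Omd*, *Optc*, *Chad*, *Nyx*, *Podnl1* and *Chadl* did not pass the filter on low counts.

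At day 14, 1 of the 8 members, *Lum*, was called, against 0.787% of all genes tested called and 0.697% called and higher. Every day 14 mouse was above every baseline mouse for 0 members and for 0.435% of the genes tested. All 4 members called at day 7 had positive log2 fold changes at day 14, from 0.44 to 0.90, but both comparisons share the baseline mice. For *Bgn*, *Fmod*, *Prelp* and *Podn* the log2 fold changes at day 14 were 0.10, −0.23, 0.05 and −0.18 (adjusted p = 0.821 to 0.963). With total counts in place of TMM, which moved the median of all genes up by 0.21, *Dcn* (0.64), *Ogn* (0.77) and *Aspn* (0.91) were called as well.

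Set directly against each other, day 14 and day 7 gave 0 called members in edgeR, with 0.377% of all genes tested called and 0.205% called and higher. *Lum*, *Dcn* and *Ogn* had an unadjusted p below 0.05, with log2 fold changes of −0.51 (adjusted p = 0.0872), −0.34 (adjusted p = 0.270) and −0.26 (adjusted p = 0.209). For *Aspn* the value was −0.38 (95% interval −0.85 to 0.08, adjusted p = 0.457). A total of 4 of 7 day 14 mice were below every day 7 mouse for *Lum*, 5 for *Ogn*, 3 for *Dcn* and 0 for *Aspn*. In DESeq2 *Lum* had an adjusted p of 0.025 with a log2 fold change of −0.52, under the fold threshold, *Dcn*, *Ogn* and *Bgn* were not called (adjusted p = 0.145 to 0.995), and *Aspn*, *Fmod*, *Prelp* and *Podn* were given no adjusted p.

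The makeup of the family does not depend on the scaling of a library. *Dcn* held 52.6% ± 5.08 (SD, n = 8) of the summed CPM per kb at baseline, 51.6% ± 3.05 (n = 8) at day 7 and 51.0% ± 2.13 (n = 7) at day 14. *Ogn* likewise held 17.8% ± 4.41, 17.4% ± 1.42 and 18% ± 2.80. *Lum* held 12.4% ± 3.48 at baseline, 18.7% ± 3.78 at day 7 and 16.4% ± 5.46 at day 14, and passed *Ogn* in mean level at day 7, though in 6 of 8 mice only. *Aspn* held 3.97% ± 1.24, 4.78% ± 1.43 and 4.73% ± 1.96 and moved from place 6 to place 4. The shares of the others were lower at day 7 than at baseline: 3.70% ± 0.721 against 5.91% ± 1.60 for *Bgn*, 2.22% ± 0.488 against 4.23% ± 1.28 for *Prelp*, 0.825% ± 0.0599 against 1.74% ± 0.621 for *Podn* and 0.648% ± 0.221 against 1.35% ± 0.766 for *Fmod*. The summed level was 32.3 ± 5.49, 56.5 ± 7.89 and 45.5 ± 6.03 CPM per kb at the 3 time points.

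**Figure D3:**
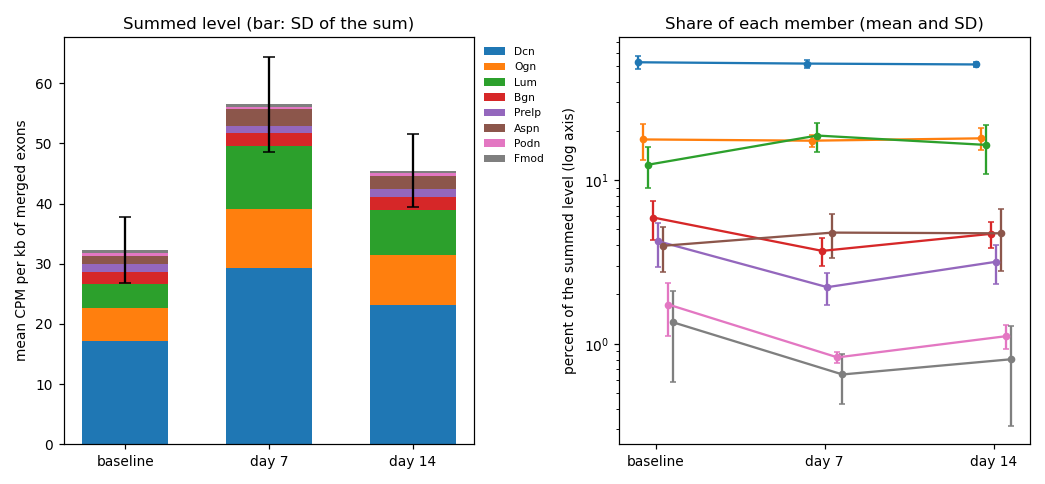
Left, mean CPM per kb of merged exons of the 8 members stacked by time point, with the SD of the sum over mice; right, the share of each member in that sum (mean and SD over mice, log axis). The sum is 32.3, 56.5 and 45.5 CPM per kb, and *Dcn* stays at about 51.0 to 52.6% while *Bgn*, *Prelp*, *Podn* and *Fmod* take smaller shares at day 7.

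Ratios within a mouse showed the same unequal change. They are differences of log2 CPM that were not divided by length. They therefore compare time points, and do not show which gene of a pair had the higher level. The log2 ratio of *Lum* to *Bgn* was −0.25 ± 0.39 at baseline and 1.01 ± 0.49 at day 7, and all 8 day 7 mice were above all 8 baseline mice. For *Lum* to *Podn* it was 1.96 ± 0.35 and 3.53 ± 0.31, again without overlap. For *Dcn* to *Ogn* it was 2.77 ± 0.50 in baseline mice, 2.74 ± 0.18 a week after injury (day 7) and 2.69 ± 0.22 at day 14. *Dcn* to *Bgn*, a pair of one class, was 3.10 ± 0.48 at baseline and 3.74 ± 0.27 at day 7, with 2 of 8 day 7 mice above every baseline mouse. These ratios are from 28 pairs of members. Those given without overlap both contain *Lum*, whose own level already separated day 7 from baseline, as did that of *Ogn*. For *Lum* to *Dcn* 3 of 8 day 7 mice were above every baseline mouse, and for *Lum* to *Ogn* 1 of 8. The share among pairs of other genes was not counted.

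Sex was compared over all time points with time as a covariate. *Lum* was lower in males by a log2 difference of −0.57 (standard error 0.126, adjusted p = 0.0358), just short of the threshold, so that it was not called. With 1 mouse left out the adjusted p of *Lum* ranged from 0.00787 to 0.0819 and exceeded 0.05 in 16 of 23 fits. An adjusted p of at most 0.05 was reached by 0.574% of the genes tested, and 0.23% were called. At baseline the 4 females had 11.5, 12.3, 13.3 and 12.2 CPM of *Lum* and the 4 males 11.3, 5.38, 7.75 and 5.40. At day 7 the females had 28.0, 33.9, 27.6 and 20.9 CPM and the males 22.9, 28.8, 27.8 and 16.7. At day 14 the 3 females had 27.6, 22.8 and 25.5 CPM and the 4 males 14.2, 12.7, 14.3 and 11.6. Females and males overlapped at day 7, and did not overlap at baseline, where 11.5 and 11.3 CPM were nearest, or at day 14. The share of all genes tested that separate the sexes in groups of 3 or 4 mice was not counted. *Lum* at day 14 stood at 22.8 CPM or more in all females, within the day 7 range, and at 14.3 CPM or less in all males. The males also had the lower baseline: from baseline to day 14 the mean went from 7.47 to 13.2 CPM in males and from 12.3 to 25.3 in females. All day 14 males, at 11.6 CPM or more, were above the highest baseline male, at 11.3 CPM.

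No other member reached the threshold for sex: the log2 fold change of males against females was 0.75 for *Fmod* (unadjusted p = 0.0102, adjusted p = 0.328) and 0.35 for *Prelp* (adjusted p = 0.460) in edgeR. Whether the change after injury itself differed between the sexes was tested as an interaction. None of the 8 members passed at day 7, where 0.0082% of the genes tested did, or at day 14, where 0% did. The smallest unadjusted p at day 7 was that of *Dcn* (0.0457 in edgeR, adjusted p = 0.878), with a change 0.54 larger in males on the log2 scale. *Dcn* went from 109 ± 31.7 to 155 ± 16.1 CPM in females (n = 4 and 4) and from 91.1 ± 15.6 to 188 ± 35.4 in males (n = 4 and 4). For *Bgn* the interaction was 0.66 (95% interval −0.03 to 1.34, adjusted p = 0.888), and for *Lum* 0.49 (95% interval −0.08 to 1.05, adjusted p = 0.924). DESeq2 gave an adjusted p of 1 for *Lum*, *Dcn* and *Bgn* in the interaction with day 7. Without the 4 mice of high lymphocyte marker level, an alternative chosen after seeing the data, the interaction of *Bgn* was 1.22 (adjusted p = 0.0314 in edgeR). Mouse 5, among these 4, had the highest baseline level of *Bgn* (19.8 CPM), and leaving it out alone gave 1.13. With 1 mouse left out at a time, the adjusted p of this interaction was 0.139 or more.

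Genes that build, cut or bind these proteoglycans were counted at day 7 from lists. Of 18 tested genes of chondroitin and dermatan sulfate synthesis, 1 was called and higher, *Dse*, which encodes the epimerase that turns chondroitin into dermatan sulfate (log2 fold change 0.94, adjusted p = 0.000403). Its median was 0.04, against 0.022 for all genes tested. *Csgalnact2* (0.38), *Dsel* (0.36) and *Chpf2* (−0.22) had adjusted p-values of 0.00271, 0.0169 and 0.0175 with folds under the threshold. Of 4 tested genes of keratan sulfate synthesis 0 were called in edgeR. The largest difference was −0.51 for *B4galt4* (adjusted p = 0.0922), the only gene of this list with an unadjusted p below 0.05 (0.0228). Of 17 other proteoglycans 0 were called, with *Sdc2*, which encodes syndecan 2, at 0.45 (adjusted p = 0.00302) and *Hspg2*, which encodes perlecan of basement membranes, at −0.38 (adjusted p = 0.00825), both under the fold threshold.

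Of 8 tested proteases and their enhancers that process or cleave SLRPs, 6 were called and higher at day 7. Their list had a median of 0.61 on the log2 scale. They were *Bmp1*, which encodes the protease that cuts the propeptides of procollagens and of some SLRPs (0.64, adjusted p = 0.00116), its enhancers *Pcolce* and *Pcolce2*, the aggrecanase *Adamts5* (0.59, adjusted p = 0.00205) and the matrix metalloproteinases *Mmp2* (1.16, adjusted p = 6.91e-07) and *Mmp14* (1.07, adjusted p = 4.08e-06). At day 14 *Mmp2* (0.78, adjusted p = 0.00165) and *Mmp14* (0.65, adjusted p = 0.0171) were called. Of 16 ligands and receptors that SLRPs bind, 5 were called and higher at day 7 (*Tgfbr2*, *Tlr4*, *Cd44*, *Eln* and *Fbn1*) and 0 at day 14 (smallest adjusted p = 0.155 in edgeR). *Tlr4*, a receptor of released biglycan and decorin, had a log2 fold change of 0.89 (adjusted p = 0.00848), and *Fbn1*, which encodes the microfibril protein fibrillin 1, of 0.77 (adjusted p = 6.18e-05).

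Most of the collagen genes whose products the members bind were also called. Of 11 fibril-forming and fibril-associated collagen genes, 8 were called and higher at day 7. The log2 median was 0.83 for the list and 0.44 for the 8 members. *Col5a2* (1.10, adjusted p = 4.28e-07), *Col6a1* (0.84, adjusted p = 2.88e-07) and *Col6a3* (0.83, adjusted p = 8.51e-07) had the smallest adjusted p-values. At day 14 *Col5a2* (0.60, adjusted p = 0.00654) and *Col6a3* (0.61, adjusted p = 0.000696) were called, with a median of 0.46 for the list and 0.27 for the members.

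Cell type markers moved over the same days. Of 15 tested fibroblast and stellate cell markers 7 were called and higher at day 7 (median 0.59), among them *Pdgfra*, which encodes a receptor of platelet-derived growth factor (0.88, adjusted p = 3.05e-07), and *Postn*, which encodes the matrix protein periostin (1.72, adjusted p = 0.00303). Baseline mice had 107 to 194 CPM of these markers in sum, day 7 mice 185 to 288 and day 14 mice 167 to 262. Of 9 acinar markers 4 were called and lower (median −0.58), and their sum was 281010 to 406940 CPM at baseline and 159380 to 247540 at day 7, without overlap. Of 9 macrophage markers 7 were called and higher (median 0.89), and their sum was 45.4 to 136 CPM at baseline and 84.8 to 180 at day 7. The part of these cells in the changes of *Lum*, *Dcn*, *Ogn* and *Aspn* was not tested.

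Of 7 islet markers 3 were called and higher at day 7 (*Ins1*, *Ins2* and *Iapp*; median 0.97), and their sum was 125 to 515 CPM in baseline mice, 367 to 1086 on day 7 and 414 to 806 on day 14. At day 7, 2 of 7 ductal markers were called and higher (median −0.03). Of 6 pericyte and smooth muscle markers 1, *Notch3*, was called and lower, while the list had 3 higher, 3 lower and a median of 0.23. In edgeR 0 were called of 7 endothelial, 5 lymphocyte, 6 adipocyte, 5 mesothelial and 2 nerve markers, with medians of −0.31, 1.18, 0.66, −0.03 and 0.45 and smallest adjusted p-values of 0.000840 (*Plvap*, under the fold threshold), 0.495, 0.542, 0.678 and 0.174. At day 14, 2 fibroblast markers were called, *Pdgfra* (0.63, adjusted p = 0.000440) and *Dpt* (0.72, adjusted p = 0.0153), and 0 of every other marker list.

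Mice also differed within a group, and the members did not vary together uniformly. The following correlations are across the 23 mice after the means of time and sex were removed from log2 CPM; they share library and scaling and are given as a description. Of 28 pairs of members, 5 had r of at least 0.5 and 2 were below 0. The highest was *Lum* with *Podn* (Pearson r = 0.71, Spearman rho = 0.64, and r = 0.57 without the 2 farthest mice). *Dcn* with *Podn* had r = 0.64 (rho = 0.63, r = 0.62 without the 2 farthest mice). *Lum* with *Bgn* had r = 0.61 but rho = 0.31, and r = 0.38 without the 2 farthest mice, so that it rested on those mice. The neighbours *Dcn* and *Lum* had r = 0.38 (rho = 0.40, r = 0.24 without the 2 farthest), and *Ogn* and *Aspn*, of 1 row of genes, had r = −0.05 (rho = −0.15, r = −0.25 without the 2 farthest).

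Against the mean of each marker list, *Dcn* had r = 0.73 with fibroblast markers (rho = 0.74, r = 0.74 without the 2 farthest mice) and r = 0.77 with macrophage markers (rho = 0.78, r = 0.76), and also 0.74 with mesothelial (rho = 0.70, r = 0.65) and 0.64 with lymphocyte markers (rho = 0.69, r = 0.71). *Podn* had r = 0.74 with fibroblast (rho = 0.63, r = 0.57) and 0.72 with macrophage markers (rho = 0.72, r = 0.63). *Lum* had r = 0.70 with fibroblast (rho = 0.59, r = 0.51), 0.67 with smooth muscle (rho = 0.58, r = 0.55) and 0.66 with macrophage markers (rho = 0.58, r = 0.59). *Bgn* had r = −0.86 with acinar markers (rho = −0.76, r = −0.76) and *Lum* r = −0.76 (rho = −0.60, r = −0.61). *Aspn* had r = 0.40 with fibroblast markers (rho = 0.38, r = 0.56) and lay between −0.21 and 0.36 with the other lists.

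**Figure D4:**
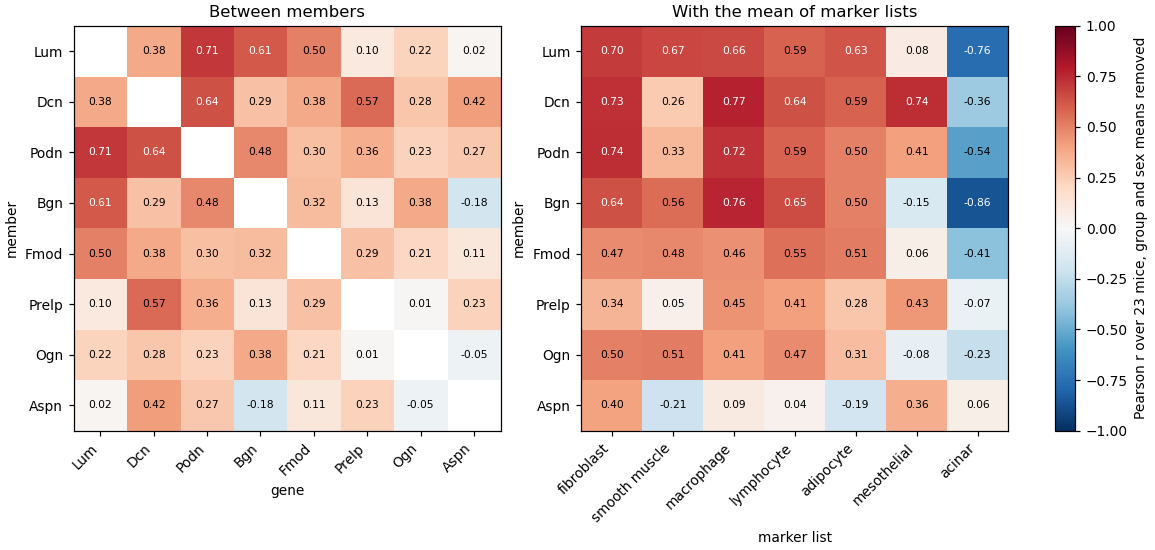
Pearson r across the 23 mice, after the means of time and sex were removed from log2 CPM, between the 8 members and between each member and the mean of each marker list. *Lum* and *Podn* have the highest r among members (0.71), *Bgn* and the acinar markers the lowest in the plot (−0.86), and *Aspn* lies between −0.21 and 0.40 with the 7 lists.

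The genes most like each member over the 23 mice by the same measure were taken as the 3 with the highest r. For *Dcn* they were *Ahnak* (0.94), *Aebp1* (0.91) and *Ccdc80* (0.90), and for *Bgn* *Slc6a6* (0.91), *Hist1h2bg* (0.90) and *Slc11a1* (0.88). For *Lum* they were *Tnfrsf11a* (0.87), *Myl6* (0.84) and *Eno1b* (0.84), and for *Podn* *Wfdc17* (0.85), *B230354K17Rik* (0.85) and *Gaa* (0.84). The highest r was lower for the rest: 0.82 for *Ogn* with *Zfp202*, 0.81 for *Fmod* with *Itpripl1*, 0.80 for *Prelp* with *Xdh* and 0.73 for *Aspn* with *Cebpa*. Without the 2 farthest mice, r with the first gene was 0.91 (*Dcn*), 0.84 (*Bgn*), 0.81 (*Lum*) and 0.76 (*Podn*). For the rest it was 0.67 (*Ogn*), 0.75 (*Fmod*), 0.64 (*Prelp*) and 0.56 (*Aspn*). Each r was picked as the highest over all other genes tested, and how high it reaches by chance was not tested. Of the 24 genes over all members, 15 were also named with total counts in place of TMM, and 10 when only the means of time were removed.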

How the data were processed

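RNA of the head of the pancreas of 23 mice was sequenced by the authors from ribosome-depleted, stranded total RNA libraries. Per the labels and the study's methods, reads were trimmed with Trim Galore and cutadapt. They were aligned to mm10 with STAR 2.5.2a and counted per gene with featureCounts. The annotation release and strand setting are not given in the sources used here. Reads of overlapping genes on opposite strands (*Aspn*, *Ogn* and *Ecm2* with *Cenpp*, *Prelp* with *Gm15851*) may therefore not be separated. *Podn* overlaps *Scp2* on the same strand, where a strand setting would not separate their reads. The deposited files hold raw counts for 18512 symbols in each mouse, between 7059890 and 9567446 in total. No 2 files were identical. In the mapping statistics of the paper, the day 14 libraries had a smaller share of 5′ untranslated exon tags than every baseline and day 7 library. The part of this library difference in the comparisons with day 14 was not tested.

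Groups came from the labels. Genes passing edgeR's filterByExpr (12195) were fitted with edgeR 4.0.16 in R 4.3.3 (TMM, robust quasi-likelihood F test, time and sex) over all mice, with Benjamini-Hochberg adjustment over all of them. Standard errors restate that test and intervals are 95%. Interactions used a fit of 6 groups of time and sex. DESeq2 1.42.0, other scalings, filters and covariates and leaving out each mouse were alternatives. Log2 CPM used a prior count of 2. Exon lengths and gene positions were from GENCODE M21 (GRCm38), in which 17721 symbols (95.7%) matched; promoters were from RefSeq (GRCm38.p6). Named list genes are the 4 of each list with the smallest adjusted p at day 7, and genes like a member the 3 with the highest r. The members and lists were chosen with earlier results of these data known. The model was tested on simulated data. Intervals and floors cover the spread between these mice or counting error only.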

Additional observations from a re-analysis of the deposited data

Results flagged for a closer look

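In 2 of 24 groups of a member at a time point, 1 mouse stood apart from the others by Dixon's test (8 mice each; chance gives about 1 in 20 groups). *Fmod* at day 7 was lowest in mouse 12, with a log2 CPM of −0.88 against 0.30 in the nearest mouse and a gap of 0.674 of the range. *Aspn* at day 7 was lowest in mouse 11, with 1.30 against 2.39 and a gap of 0.603 of the range.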

How the results depend on the processing

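*Lum*, *Dcn*, *Ogn* and *Aspn* were called at day 7 under every alternative run, each mouse left out included, and *Lum* was called at day 14 under all but the fit without sex (0 members). With total counts in place of TMM the median of all genes moved by 0.45 at day 7, 0.21 at day 14 and −0.24 between them. The genes called then numbered 3727 at day 7 (626 with TMM, 99.4% of them higher against 466 of 626), 449 at day 14 (96) and 477 between day 14 and day 7 (46), and the members called 4 at day 14, 3 between the days (*Lum*, *Dcn*, *Aspn*) and 1 between the sexes (*Lum*). Log2 fold changes that turned sign with it were *Fmod* 0.29, *Prelp* 0.30 and *Podn* 0.14 at day 7, *Podn* 0.01 at day 14, and *Prelp* −0.05 and *Podn* −0.13 between the days. Total counts without the 20 most abundant genes called 1 member between the sexes (*Lum*), and 85.5% of its calls at day 7 were higher. At least 10 counts in every mouse gave 348 genes at day 7, 30 between the days and 16 between the sexes. Without a fold threshold there were 2264, 192 and 157 genes in the 3 time comparisons and 2 members at day 14 (*Lum*, *Ogn*). DESeq2 called 44 genes between the sexes (28 in edgeR) and 17 and 1 in the interactions of sex with day 7 and day 14 (1 and 0 in edgeR), while edgeR without a filter on low counts called 0 at day 7. Between the days *Bgn* turned from just below 0 to 0 with DESeq2 and its size factors and to 0.01 without the filter, and *Fmod* to 0.01 without sex. The alternative without the 4 mice of high lymphocyte markers was chosen after seeing the data. It turned *Prelp* at day 14 to −0.07 and *Bgn* between the days to 0.06, called 1 member between the sexes (*Lum*), and called 1 member (*Bgn*) among 5 genes in the interaction with day 7. Of the 24 genes most like a member, 15 were kept with total counts and 10 with only time means removed. The cause of these differences was not tested. Leaving out each mouse in turn gave 1 to 2 members at day 14 (*Ogn* was added without mouse 5, 17 or 22), 0 to 1 between the sexes (*Lum*, without mouse 5, 9, 11, 12, 14 or 15, while its adjusted p exceeded 0.05 in 16 of 23 fits), 65 to 104 genes at day 14, 22 to 57 between the days and 0 to 7 in the interaction with day 7. It gave −0.07 to 0.16 for *Prelp* at day 14, −0.06 to 0.06 for *Bgn* and −0.35 to 0.09 for *Fmod* between the days, and −0.08 to 0.04 for *Dcn* between the sexes. No paired analysis was possible because the mouse numbers are not shared between groups. Depth limits *Fmod*, *Podn*, *Prelp* and *Aspn*, which had at most 91 counts in any mouse.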
